A study of Homo sapiens with 2 samples.

Results

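Genes of homologous recombination, the Fanconi anaemia pathway and the DNA damage checkpoint were compared between QGP1 cells with high aldehyde dehydrogenase (ALDH) activity and control QGP1 cells. QGP1 is an established human cell line from a pancreatic neuroendocrine tumour. The ALDH-high cells were obtained by fluorescence-activated cell sorting, and ALDH activity is used as a property that enriches for cancer stem-like cells. The control was QGP1 cells without that label, and the sources used here do not say if they were sorted too. Total RNA of each group was hybridised to 1 Affymetrix array, so both groups are 1 sample of the same line and no difference below has a replicate check or a p-value. The module was a list of 37 genes, of which 32 had at least 1 probe set annotated with their symbol and no other, out of 19775 genes compared. BRCA2, FANCA and FANCD2 were not analysed here, and ATRIP and PMS2 were represented only by probe sets that also carry the symbol of another gene and were left out. Where a gene had several probe sets, the brightest by its mean over both arrays was taken as its main probe set.

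Homologous recombination copies lost sequence from the sister chromatid and is used in S and G2 phase, when a sister is present. Broken ends are cut back by nucleases, and BRCA1, PALB2 and BRCA2 act in turn on the single strand this leaves. The Fanconi pathway removes crosslinks between DNA strands, among them those made by endogenous aldehydes such as formaldehyde and acetaldehyde, which ALDH and alcohol dehydrogenase enzymes also clear. Its core complex attaches ubiquitin to the FANCI and FANCD2 pair, which opens the crosslink for nucleases. The kinases ATM and ATR sense breaks and stalled forks and act through CHEK2 and CHEK1 to hold the cell cycle. Many of these genes are transcribed in S phase under E2F factors.

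Nearly all measured genes of the module were higher in the ALDH-high cells, by modest amounts. Of the 32 genes, 29 had a positive log2 difference (ALDH high minus control), against a background of 45.6% of all 19775 genes. A difference of more than 1.5-fold was found in 7 genes, all higher in the ALDH-high cells, where 2.61% of all genes were over 1.5-fold higher. No member was over 1.5-fold lower, where 4.21% of all genes were. FANCM was the only member over 2-fold higher, at 2.003-fold, beside 0.465% of all genes, and none was over 2-fold lower, beside 1.23% of all genes. That FANCM call was lost when all its probe sets were averaged (0.67) or their median taken (0.80), and with a pseudocount (0.78). It was also lost without probe sets open to several transcripts (0.09), meaning here those with names ending in _s_at or _x_at. In that last setting FANCC (1.06) was the member over 2-fold. Its levels there, 5.33 in ALDH-high cells against 4.27 in control cells, were both below the array median of 5.68. The median log2 difference was 0.34 over the members, which is 1.26-fold, and -0.01 over all genes. The 7 genes were FANCM, FANCB, POLQ, TIMELESS, RAD54L, CLSPN and NEIL3. The nearest gene inside the 1.5-fold limit was NEIL3 at 1.63-fold, and the nearest outside were RAD54B, TIPIN and UNG, each at 1.47-fold.

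As a yardstick, the differences between probe sets of the same gene had a pooled SD of 0.23 on the log2 scale over all genes, and 22 of the 32 members were higher by more than this, where 16.3% of all genes were. Over probe sets with a mean level at or above the array median the pooled SD was 0.18. That spread covers neither the culture nor the sort. The array medians were both 5.68, and 31 of the 32 members had a mean level at or above that median, XRCC3 being the exception. Of all 19775 genes, 12529 were at or above it. Among these, 48.3% lay above 0, 3.53% were over 1.5-fold higher, 5.52% over 1.5-fold lower and 0.607% over 2-fold higher. Control transcripts with a poly-A tail, which are added to the RNA before labelling, were 0.32 higher on the ALDH-high array (SD 0.07 over 24 probe sets of dap, lys, phe and thr), about the size of the median of the members. Hybridisation controls differed by 0.05 (SD 0.04 over 18 probe sets). The part of the poly-A control shift in the differences reported here was not tested.

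**Figure D1:**
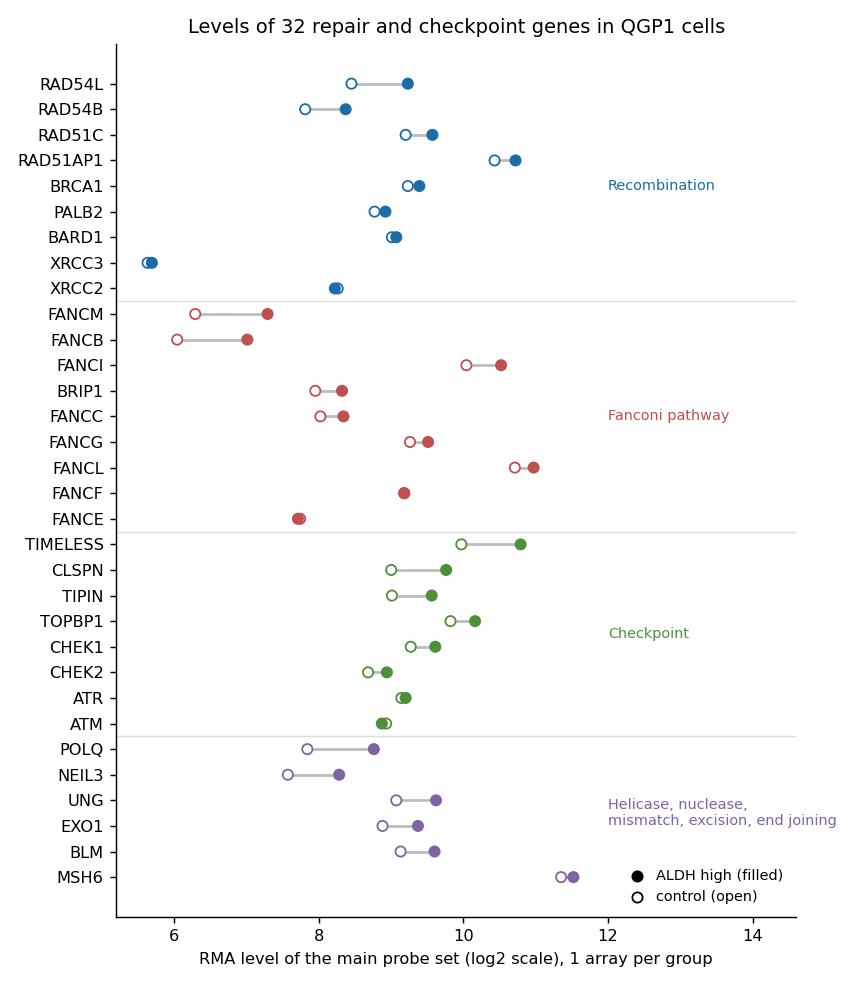
RMA levels (log2 scale) of the main probe set of each of the 32 measured genes on the ALDH-high array (filled) and the control array (open), grouped by role and ordered by difference within each group. The filled point lies right of the open one for 29 genes, and on these probe sets the longest connecting lines are those of FANCM, FANCB and POLQ.

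**Figure D2:**
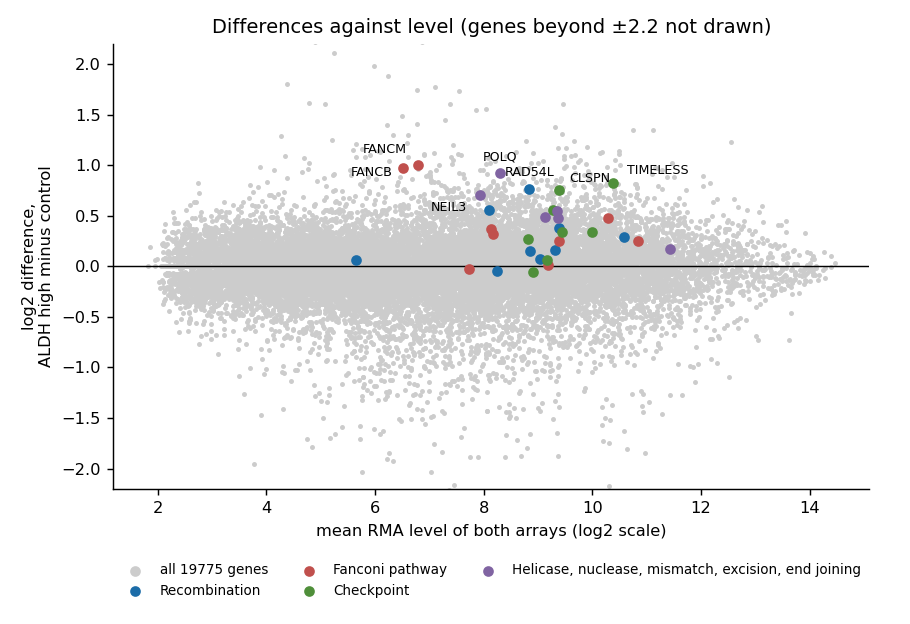
Log2 difference (ALDH high minus control) against the mean RMA level of both arrays for all genes within the drawn range (grey) and the 32 measured members (coloured by role). The members lie between -0.06 and 1.0, and the 7 over 1.5-fold are named.

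The promoters of the members are shown because a larger share of them held E2F-like letters than of promoters at large, a description without a test. RefSeq promoter windows (GRCh38.p14, 250 bases before to 50 after the annotated start) were available for 30 of the 32 measured genes, and the first listed window of each gene was searched. The E2F-like motif was TTCCCGC on either strand, with TTGGCGC as its first variant, with TTCGCGC as a further variant, and lastly with TTGCCGC. It occurred in 19 of 30 member windows (63.3%), in 17.0% of the first windows of 15384 genes compared on the arrays and in 13.0% of all 35116 windows. Among repair genes described further on, it occurred in 9 of 33 windows of further recombination and Fanconi genes (27.3%). For nucleotide excision genes it was 4 of 13 (30.8%). The shares were close for members over 1.5-fold higher (4 of 7) and for the remaining members (15 of 23). Of the 24 matches, 20 began between 60 bases before and 50 bases after the start, and 2 overlapped a match of another motif searched. In the 30-base stretches that follow, written 5′ to 3′ on the strand of the gene, capitals mark the E2F-like match; GCGGGAA is what TTCCCGC gives when read on the opposite strand. The first 4 belong to members over 1.5-fold higher.
POLQ (chr3:121545956-121545985, minus strand): tttgaagactgGCGGGAAgatgtccgcagc
TIMELESS (chr12:56449399-56449428, minus strand): ccgcctcgctcTTCGCGCaggcggggaccg
CLSPN (chr1:35769965-35769994, minus strand): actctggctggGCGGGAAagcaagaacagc
RAD54L (chr1:46247628-46247657, plus strand): gcgcagcactaTTCCCGCctcttccttggg

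A further 4 stretches belong to members of a commonly used G1/S marker list, all of them higher by less than 1.5-fold. In UNG the match is a palindrome that reads as E2F-like on both strands and runs into a CCAAT match.
UNG (chr12:109097578-109097607, plus strand): gcgcgggccgcTTGGCGCCAAttgctgacc
EXO1 (chr1:241848198-241848227, plus strand): aaggtcagcctTTCGCGCgctgtgtaggca
RAD51AP1 (chr12:4538858-4538887, plus strand): tctggttttggGCGGGAAttgaaaccgccg
BRIP1 (chr17:61863508-61863537, minus strand): gggggcgggagGCGGGAAttcgtctcgggt

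The last 4 stretches belong to members that were nearly level between the arrays, with log2 differences from -0.05 to 0.07, and they carry the same letters.
BARD1 (chr2:214809661-214809690, minus strand): ccgtcccagacGCGGGAAgagcttggccgg
FANCF (chr11:22625804-22625833, minus strand): gaagtagggccTTCGCGCacctcatggaat
FANCE (chr6:35452345-35452374, plus strand): tttccgacagcGCGGGAAcggctgcggctt
XRCC2 (chr7:152676102-152676131, minus strand): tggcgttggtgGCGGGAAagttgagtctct

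FANCM and FANCB, 2 of the members over 1.5-fold higher, had no E2F-like match in their windows. The 250 bases before the FANCM start are given with its CCAAT matches (CCAAT, or ATTGG on the opposite strand) in capitals, and those before the FANCB start had no match of any motif searched.
FANCM (chr14:45135680-45135929, plus strand): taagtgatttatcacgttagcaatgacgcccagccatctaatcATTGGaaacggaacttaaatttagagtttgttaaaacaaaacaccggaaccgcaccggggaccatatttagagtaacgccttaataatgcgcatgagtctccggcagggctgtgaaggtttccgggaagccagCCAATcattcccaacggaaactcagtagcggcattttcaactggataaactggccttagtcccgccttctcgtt
FANCB (chrX:14873070-14873319, minus strand): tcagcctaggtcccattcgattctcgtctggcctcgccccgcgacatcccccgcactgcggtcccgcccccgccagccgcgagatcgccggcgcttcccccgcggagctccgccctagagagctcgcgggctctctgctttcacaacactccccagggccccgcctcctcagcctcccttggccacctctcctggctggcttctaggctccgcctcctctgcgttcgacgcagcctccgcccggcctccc

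The CHR motif (TTTGAA or TTCGAA, either strand), known from genes of G2 and M phase, was found in 5 of 30 member windows (16.7%) and in 13.3% of the windows of genes on the arrays. CCAAT was found in 17 of 30 member windows (56.7%) and in 36.1% of those of genes on the arrays. In the first windows of the G2/M markers described further on, CHR was found in 11 of 15 (73.3%) and the E2F-like motif in 3 of 15. In those of the G1/S markers the E2F-like motif was found in 18 of 24 and CHR in 2 of 24 (8.33%). By these letters the member windows were closer to the G1/S than to the G2/M windows. A match is a run of letters and not a measured binding site.

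**Figure D3:**
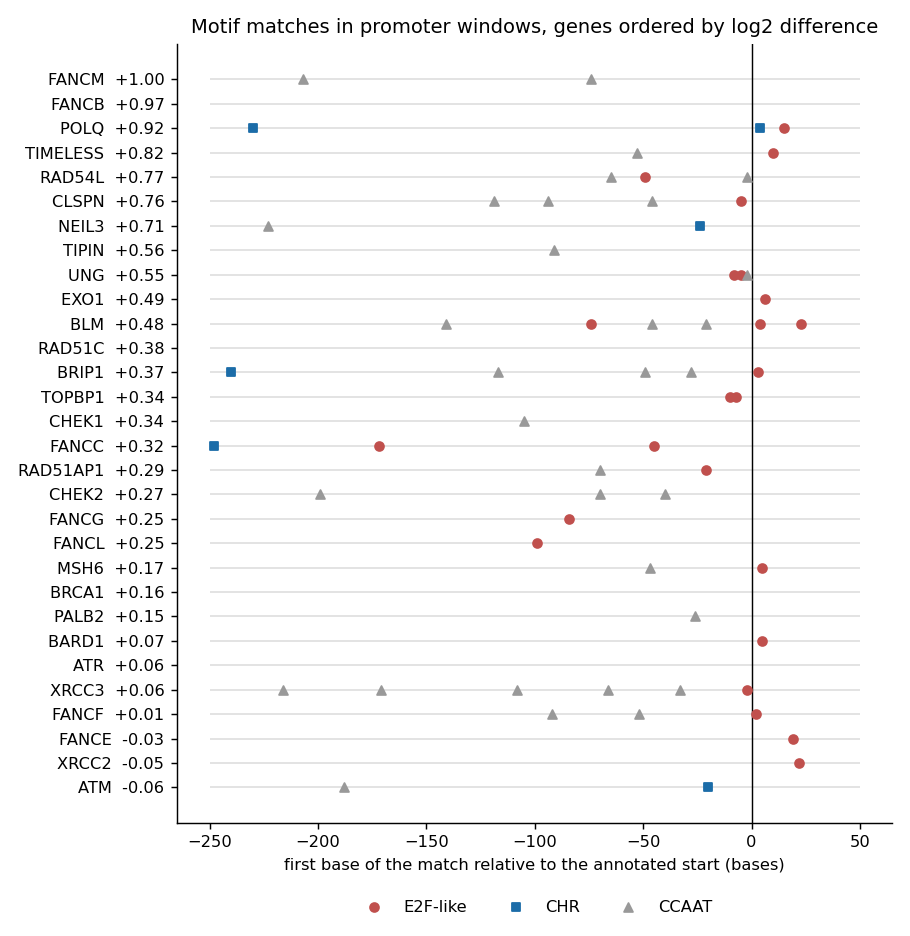
Position of E2F-like, CHR and CCAAT matches relative to the annotated start (bases) in the first RefSeq window of 30 members, ordered from the highest to the lowest log2 difference, which is printed beside each name. E2F-like matches gather around the start and occur both in members with a large difference and in those near 0.

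Among the 9 measured recombination genes, 8 were above 0, where 45.6% of all genes were. The median difference of the group was 0.16. Over probe sets not open to several transcripts it was 0.29, but BRCA1, RAD51C, XRCC2 and XRCC3 had none and dropped out. The values of the genes that remained did not change. RAD54L, a motor protein of strand exchange, had a level of 9.23 in ALDH-high cells against 8.45 in control cells, 1.71-fold higher. Its relative RAD54B had 8.37 in ALDH-high cells against 7.81 in control cells, 1.47-fold higher. These 2 genes gave the largest differences of the group, each on its only probe set. RAD51C, which acts before and after strand exchange, had 9.57 in ALDH-high cells against 9.20 in control cells, a log2 difference of 0.38, and its second probe set differed by 0.13. RAD51AP1, which stimulates strand exchange, had 10.72 in ALDH-high cells against 10.43 in control cells, a difference of 0.29.

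BRCA1, BARD1 and PALB2 were almost level between the arrays. BRCA1, a ubiquitin ligase and scaffold that promotes end resection, had 9.39 in ALDH-high cells against 9.23 in control cells, and both of its probe sets differed by 0.16. BARD1, its obligate partner, had 9.07 in ALDH-high cells against 9.01 in control cells, with its 3 probe sets between -0.02 and 0.07. PALB2, the bridge between BRCA1 and BRCA2, had 8.92 in ALDH-high cells against 8.77 in control cells. All of these differences are below the spread between probe sets of one gene. The strand exchange cofactors XRCC2 (8.22 in ALDH-high cells against 8.26 in control cells) and XRCC3 (5.69 against 5.63) likewise differed by -0.05 and 0.06.

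Of the 9 measured Fanconi genes 8 were above 0 and 2 were over 1.5-fold higher, where 45.6% and 2.61% of all genes were. The median difference of the group was 0.32. FANCM, the helicase that anchors the core complex on DNA, had a level of 7.29 in ALDH-high cells against 6.29 in control cells. All 4 FANCM probe sets were above 0. Those at lower levels differed by 0.84 and 0.76, whereas the 1 FANCM probe set that is not open to binding several transcripts had 6.15 in ALDH-high cells against 6.06 in control cells, a difference of 0.09. The large FANCM value thus rests on probe sets that may bind further transcripts, and it was 0.67 as the mean of all 4.

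FANCB, the X-linked subunit that supports the ubiquitin ligase of the core complex, had 7.01 in ALDH-high cells against 6.04 in control cells, 1.96-fold higher. Of its other probe sets, 2 differed by 0.98 and 0.58 and a dim one (3.91 in ALDH-high cells against 3.78 in control cells) by 0.13. FANCL, the catalytic ubiquitin ligase subunit, had 10.97 in ALDH-high cells against 10.71 in control cells, a difference of 0.25. The core subunits FANCG (0.25) and FANCC (0.32) differed by similar amounts. A second FANCC probe set had 5.33 in ALDH-high cells against 4.27 in control cells, a difference of 1.06 between levels that are both below the array median, and the last was equal on both arrays at 4.55. FANCF, the adaptor between core subunits, had 9.18 on both arrays, and its second probe set differed by 0.03. FANCE, which contacts FANCD2, had 7.71 in ALDH-high cells against 7.74 in control cells. Over the 7 measured core subunits, a set formed after the values were seen, differences ran from -0.03 to the 1.0 of FANCM, and the median was 0.25.

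FANCI, a target of the core complex, had 10.52 in ALDH-high cells against 10.04 in control cells, a difference of 0.48, and its other probe sets differed by 0.44 and 0.19. BRIP1, the helicase FANCJ that binds BRCA1, had 8.32 in ALDH-high cells against 7.95 in control cells, a difference of 0.37, with 0.47 on its second probe set. All probe sets of both genes were above 0.

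In the checkpoint group 7 of 8 measured genes were above 0 and 2 were over 1.5-fold higher, beside 45.6% and 2.61% of all genes. The median difference of the group was 0.34. TIMELESS, a fork protection protein, had a level of 10.79 in ALDH-high cells against 9.97 in control cells, 1.76-fold higher, and its second probe set differed by 0.57. Its partner TIPIN had 9.56 in ALDH-high cells against 9.01 in control cells, 1.47-fold higher. CLSPN encodes claspin, the adaptor through which ATR activates CHEK1, and it had 9.76 in ALDH-high cells against 9.0 in control cells, 1.69-fold higher. Of the other CLSPN probe sets, 1 differed by 0.92. The last 2 were both near the array median. They differed by 0.81 (6.19 in ALDH-high cells against 5.38 in control cells) and by 0.05 (5.80 against 5.74).

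The kinase CHEK1 had 9.61 in ALDH-high cells against 9.27 in control cells, a difference of 0.34. Its other probe sets differed by 0.46 and 0.56, and a dim one by -0.04. CHEK2 had 8.94 in ALDH-high cells against 8.68 in control cells, a difference of 0.27. TOPBP1, the activator of ATR, had 10.16 in ALDH-high cells against 9.82 in control cells, a difference of 0.34. ATR itself had 9.20 in ALDH-high cells against 9.14 in control cells, and its second probe set above the array median differed by 0.17. ATM had 8.87 in ALDH-high cells against 8.93 in control cells. Of its 6 probe sets 3 were above 0 and 3 below, and those at or above the array median differed by -0.06, -0.18 and -0.41. ATM, XRCC2 and FANCE were the members below 0 on their main probe sets.

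The remaining genes belong to other repair reactions, and all 6 that were measured were higher, where 45.6% of all genes were. The median difference of the 6 was 0.52. POLQ, the polymerase theta of microhomology-mediated end joining, had 8.76 in ALDH-high cells against 7.84 in control cells, 1.90-fold higher, and its second probe set differed by 1.01. Among members with more than 1 probe set, POLQ was the only one in which each of them was above 0.9. NEIL3, a glycosylase that also unhooks crosslinks at stalled forks, had 8.28 in ALDH-high cells against 7.57 in control cells, 1.63-fold higher. UNG, the uracil glycosylase, had 9.62 in ALDH-high cells against 9.07 in control cells, a difference of 0.55.

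BLM, the helicase that dissolves recombination intermediates, had 9.60 in ALDH-high cells against 9.13 in control cells, a difference of 0.48. EXO1, the nuclease of end resection and mismatch repair, had 9.37 in ALDH-high cells against 8.88 in control cells, a difference of 0.49. MSH6, which recognises mismatches, had 11.52 in ALDH-high cells against 11.35 in control cells, a difference of 0.17 with 0.19 on its second bright probe set. MSH6 was the member of this group that differed least.

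Agreement between probe sets could be checked for 16 members, and in 11 of them all probe sets were above 0, where this held for 23.5% of the 10523 genes with several. Of the 66 member probe sets, 57 were above 0 and 8 below, where 47.3% of all probe sets with 1 symbol were above 0. The main probe set of 10 members, FANCM and TIMELESS among them, carries a suffix that marks possible binding to several transcripts.

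**Figure D4:**
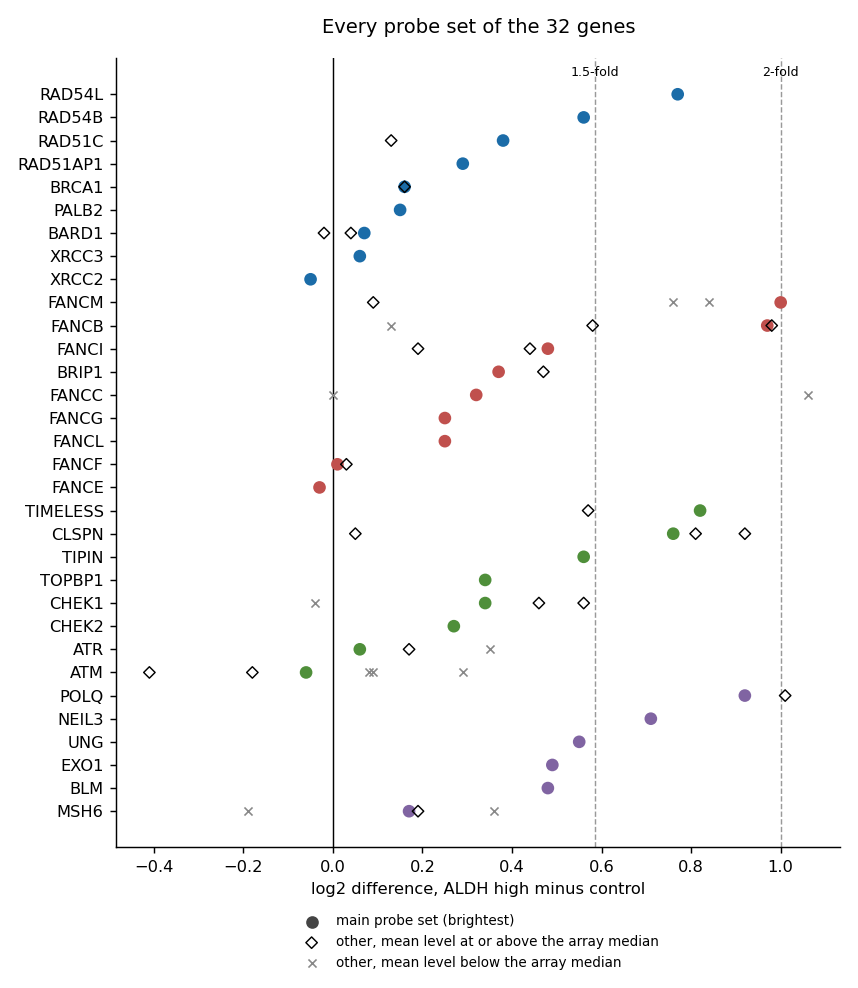
Log2 difference (ALDH high minus control) of every probe set of the 32 genes, with dashed lines at 1.5-fold and 2-fold. Coloured points are the main probe sets, diamonds are others at or above the array median and crosses are others below it. CLSPN, POLQ and FANCI have several probe sets on the right, while those of ATM fall on both sides of 0.

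Other genes of the same pathways had lower median differences than the 0.34 of all members together. By group, the median was 0.16 for the recombination members, 0.32 for the Fanconi members, 0.34 for the checkpoint members and 0.52 for the remaining members. Of 41 measured further recombination and Fanconi genes, 30 were above 0, 2 were over 1.5-fold higher and none was over 1.5-fold lower. Their median difference was 0.22. Of all genes, 45.6% were above 0, 2.61% over 1.5-fold higher and 4.21% over 1.5-fold lower. Among genes at or above the array median, 3.53% were over 1.5-fold higher, and the count of 2 is near these shares. The 2 were FIRRM, a regulator of recombination (8.52 in ALDH-high cells against 7.72 in control cells), and DNA2, a resection nuclease (8.65 in ALDH-high cells against 7.95 in control cells). Of 19 further checkpoint genes, 15 were above 0 and 3 were over 1.5-fold higher, with a median of 0.22. These were CDC25A (1.96-fold) and CDC25C (1.71-fold), the phosphatases that the checkpoint kinases restrain, and the histone H2AX (1.62-fold), which is phosphorylated around breaks.

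Repair pathways outside the module had lower medians than all members together. The median was 0.16 over 10 end-joining genes, 0.12 over 14 base excision genes and 0.06 over 3 other mismatch repair genes. Without probe sets open to several transcripts the base excision median was 0.01 and the mismatch repair median 0.21. It was -0.05 over 13 nucleotide excision genes, of which 5 were above 0 and 8 below. None of these genes was over 1.5-fold in either direction, where 2.61% of all genes were higher and 4.21% lower by that much. The difference between these lists and the members was not tested, since each group has 1 array.

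Cell cycle markers moved with the members. Of 32 G1/S markers outside the module, 31 were above 0 and 11 were over 1.5-fold higher, with a median of 0.46. All 20 G2/M markers were above 0, 15 were over 1.5-fold higher and 5 over 2-fold higher, with a median of 0.81. Over all genes, 45.6% were above 0, 2.61% over 1.5-fold higher and 0.465% over 2-fold higher. The 7 members that are themselves in the G1/S list (UNG, RAD51AP1, EXO1, TIPIN, BLM, CLSPN and BRIP1) were all above 0, with a median of 0.49. Without them, 22 of 25 members were above 0 and the median was 0.27. The median of the members thus lay below the medians of both marker lists. More cells in S, G2 and M phase and more RNA per cell cannot be told apart in RNA of a whole population, and the part of cell cycle position in the members' differences was not tested.

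Enzymes that clear aldehydes and target genes of p53 had medians near 0. Of 10 aldehyde-clearing enzymes 2 were above 0, 7 below and 1 equal, and the median was -0.05. In that list 1 gene was over 2-fold higher and 1 over 2-fold lower, where 0.465% and 1.23% of all genes were. ALDH2, the mitochondrial acetaldehyde dehydrogenase, had 6.02 in ALDH-high cells against 8.05 in control cells, and ALDH1A3, a retinaldehyde dehydrogenase, had 7.99 in ALDH-high cells against 6.21 in control cells, with a difference of 0.03 on its second probe set. ALDH1A1, also a retinaldehyde dehydrogenase, had 11.78 in ALDH-high cells against 12.13 in control cells. ADH5, which oxidises formaldehyde bound to glutathione, had 10.23 in ALDH-high cells against 10.37 in control cells. Of 12 p53 target genes 8 were above 0, with a median of 0.06. TP53I3 was 2.17-fold higher, GADD45A was 1.96-fold lower, and CDKN1A, the p21 inhibitor of cyclin-dependent kinases, had 8.86 in ALDH-high cells against 8.82 in control cells.

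**Figure D5:**
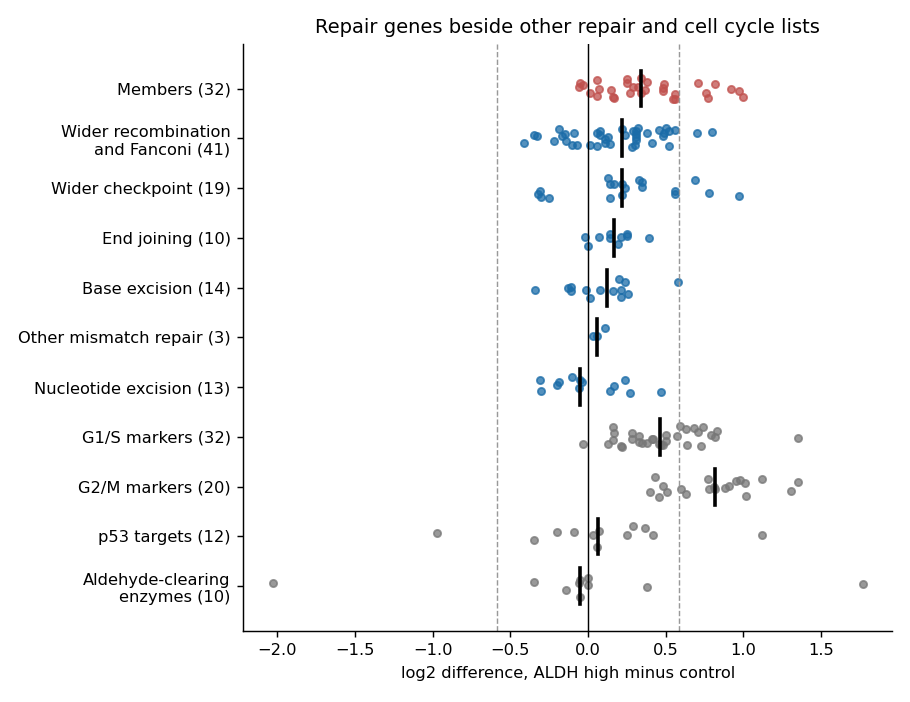
Log2 difference (ALDH high minus control) of each gene in the members (red), further repair lists (blue) and other lists (grey), with the number of measured genes in parentheses. Black bars are medians, dashed lines mark 1.5-fold in each direction, and the member median of 0.34 lies between those of the wider repair lists and the G1/S markers.

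The labelled cell type was checked on its markers. Of 10 neuroendocrine markers 8 were measured, and all 8 were at or above the array median on average, as were 12529 of all 19775 genes. Their levels ran from 6.48 to 13.69 in ALDH-high cells and from 6.48 to 13.77 in control cells, with a median difference of -0.09. In all, 2 were above 0 and 5 below. DDC was 1.60-fold higher, with 11.93 in ALDH-high cells against 11.25 in control cells. At or above the array median were 2 of 8 markers of fibroblasts and stellate cells, 1 of 5 of endothelium and 1 of 4 of leukocytes. The median differences of these lists were -0.16, -0.12 and -0.60, and the leukocyte genes CD14 and LYZ, 2.03-fold and 2.52-fold lower, had levels below the array median in both groups.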

How the data were processed

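The deposited table holds log2 RMA levels, made by the authors with RMA per the submitters' processing notes, with no version given. RMA corrects background, quantile-normalises arrays and summarises probes by median polish. RNA had an integrity number above 7 and was labelled with a 3′ in vitro transcription kit, per the labels' protocols. The table had 54675 probe sets, of which 62 Affymetrix controls were set aside. Symbols came from GEO's platform annotation, in which 41097 probe sets had 1 symbol, 1801 had several and the rest were unnamed; 41043 were found by Entrez ID in RefSeq (GRCh38.p14), which changed 0.

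With 1 array per group no test was made and the number of arrays limits the precision. Differences are ALDH high minus control, computed with Python 3.11.15 and pandas 2.3.3, and were checked on simulated data. Members, lists and thresholds were chosen with earlier results of these data known. All members are named, and other genes of a list only if over 1.5-fold, up to 6, apart from ADH5, ALDH1A1 and CDKN1A, named after their values were seen. Alternatives changed the probe set rule, the level filter, a pseudocount of 32 on the linear scale and centring in 20 bins of level.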

Additional observations from a re-analysis of the deposited data

How the results depend on the processing

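None of the 6 other settings brought a member over 1.5-fold lower, and the median difference of the members ranged from 0.33 to 0.35. The number over 1.5-fold higher was 7 or 6. The number over 2-fold higher, 1 as reported, was 0 with the mean over probe sets, 0 with the median over probe sets, 0 with the pseudocount and 2 with centring in bins of level. Without probe sets ending in _s_at or _x_at, which may bind several transcripts, 26 members remained, with FANCM at 0.09 and TIMELESS at 0.57. FANCC, at 1.06, was then the member over 2-fold, on a probe set below the array median on both arrays. FANCB stood at 0.67 as the mean of its probe sets and at 0.72 with the pseudocount. POLQ, at 0.97 with the mean or the median over probe sets and 0.84 with the pseudocount, exceeded FANCM and FANCB in those settings. Without the 7 members in the G1/S list, an alternative chosen after seeing the data, 6 of 25 were over 1.5-fold higher, where 2.61% of all genes were. No paired analysis was possible because each group has 1 array. Dim levels have no detection call, so differences below the array median could show little.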
